A study of Mus musculus with 4 samples.

Results

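The genes described here are 66 protein-coding genes of the cell cycle machinery, examined in adult skeletal muscle, a tissue whose fibres have left the cell cycle for good. They were chosen by a rule on the symbol among the 20720 protein-coding genes of chromosomes 1 to 19 with a protein-coding transcript in the GENCODE annotation, release M21. They comprise cyclins A, B, D and E, the cyclin-dependent kinases, their inhibitors, the pocket proteins, the E2F factors, the origin recognition and MCM proteins, the Cdc25 phosphatases, the Polo-like and Aurora kinases, and a set of checkpoint proteins and division markers. For each gene the acetylated regions within 1 kb and within 5 kb of any of its transcript starts were taken from the peak lists (125 starts for the 66 genes).

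Entry into the cell cycle is set by D-type cyclins with Cdk4 and Cdk6, which phosphorylate the pocket proteins and so free E2F factors to switch on the genes of DNA replication. Genes of mitosis are switched on later, through promoters that carry CCAAT boxes and an element known as CHR, and in resting cells a complex of pocket proteins, E2F4 and the MuvB proteins holds both sets of genes down. Myoblasts that fuse into fibres withdraw from the cycle with the help of the retinoblastoma protein and kinase inhibitors, and new nuclei come from satellite cells, the resting stem cells of muscle.

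The mark is H3K27ac, acetylation of lysine 27 of histone H3, found at active promoters and enhancers and measured by chromatin immunoprecipitation and sequencing. The samples formed 1 group: gastrocnemius, a calf muscle, from female adult B6CASTF1/J mice, a hybrid strain, aged 2 months. There were 2 biological replicates, each a pool of 2 tissue samples, with 2 technical libraries for each replicate. With 1 group and no second condition, nothing was tested: the lists of the single replicates give the spread between samples, and shares over all genes stand beside the counts for the whole set of cell cycle genes. Counts within a role are read against the 62.1% of all genes with a region within 1 kb of a start.

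The measurements were 4 peak lists, placed on assembly mm10: one from each replicate, with 70953 and 86937 peaks, one from the pooled reads with 91329, and a replicated list with 84452 that gives the values below unless another list is named. A peak is called an acetylated region below. Each carries the authors' signal value, its height in their unit; no source used here says what that is relative to, so values were ranked only within a list. Read depth is unknown. Markers of muscle fibres were acetylated at 8 of 8 starts, with a median of 9624 bp covered in the 10 kb around the start, and those of endothelial cells and fibroblasts at 6 of 6 each. Of the satellite cell markers 5 of 6 had a region (4 of 6 in each single replicate), among them Pax7 (signal value 10.7), and Calcr had none. Leukocyte markers had a region at 2 of 6 starts, Cd68 and Csf1r (1 of 6 in replicate 2), and the leukocyte gene Ptprc, the macrophage gene Adgre1, the T cell gene Cd3e and the B cell gene Cd79a had none. Cd68 had 42.7 in the replicated list, 3.40 in replicate 1 and no region within 1 kb in replicate 2. The neuronal and keratinocyte lists were included as markers that should be absent. Neuronal markers had a region at 0 of 5 starts and keratinocyte markers at 2 of 5, Krt10 (28.1) and Trp63 (28.8). A region at the start of a marker therefore does not by itself show that its cell type was present. In whole muscle, a region that is weak because few cells carry the mark and one that is weak because each cell carries little of it cannot be told apart.

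Most cell cycle genes were acetylated at a start in this muscle, though often at low height. Of the 66 genes, 59 (89.4%) had a region within 1 kb of a start, against 62.1% of all protein-coding genes. The list of replicate 1 held a region for 54 (81.8%, against 59.7% of all genes), that of replicate 2 for 59 (89.4%, against 62.0%) and the pooled list for 60 (90.9%, against 62.5%). Widening the window to 5 kb left the count at 59 in the replicated list (all genes 65.7%) and at 59 in replicate 2 (all genes 65.7%), and gave 55 in replicate 1 (83.3%, all genes 63.2%) and 60 in the pooled list (90.9%, all genes 66.3%). Both single replicates held a region for 54 genes, replicate 2 alone for 5 (Cdc6, Bub1, Top2a, Cdkn2a and Cdk1), replicate 1 alone for 0, and 7 genes had none in either. Over all genes both replicates held a region for 12323 (59.5%), replicate 2 alone for 521 and replicate 1 alone for 53. The 7 genes without a region in the replicated list were Ccnb2, Cdk1, Cdc25c, E2f8, Ccna1, Plk5 and Aurkc.

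Where a region was present, the cell cycle genes had a lower median height than all genes. Among genes with a region, the highest signal value within 1 kb of a start had a median of 19.4 over these 59 cell cycle genes (quartiles 8.50 and 30.9), against 27.8 over 12863 genes (quartiles 15.4 and 39.5). The same medians were 17.95 and 22.5 in replicate 1 and 20.1 and 29.3 in replicate 2, so the cell cycle genes lay lower in each. Of the 59 genes, 23 lay below the lower quartile of all genes with a region and 6 above the upper quartile. With genes without a region counted as 0, the medians were 17.6 over the 66 genes and 12.1 over all genes, so the direction depends on whether genes without a region are counted. On that basis regions covered a median of 1867 bp of the 10 kb around a start for the 66 genes (quartiles 899 and 3273 bp), against 1522 bp for all genes.

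**Figure D1:**
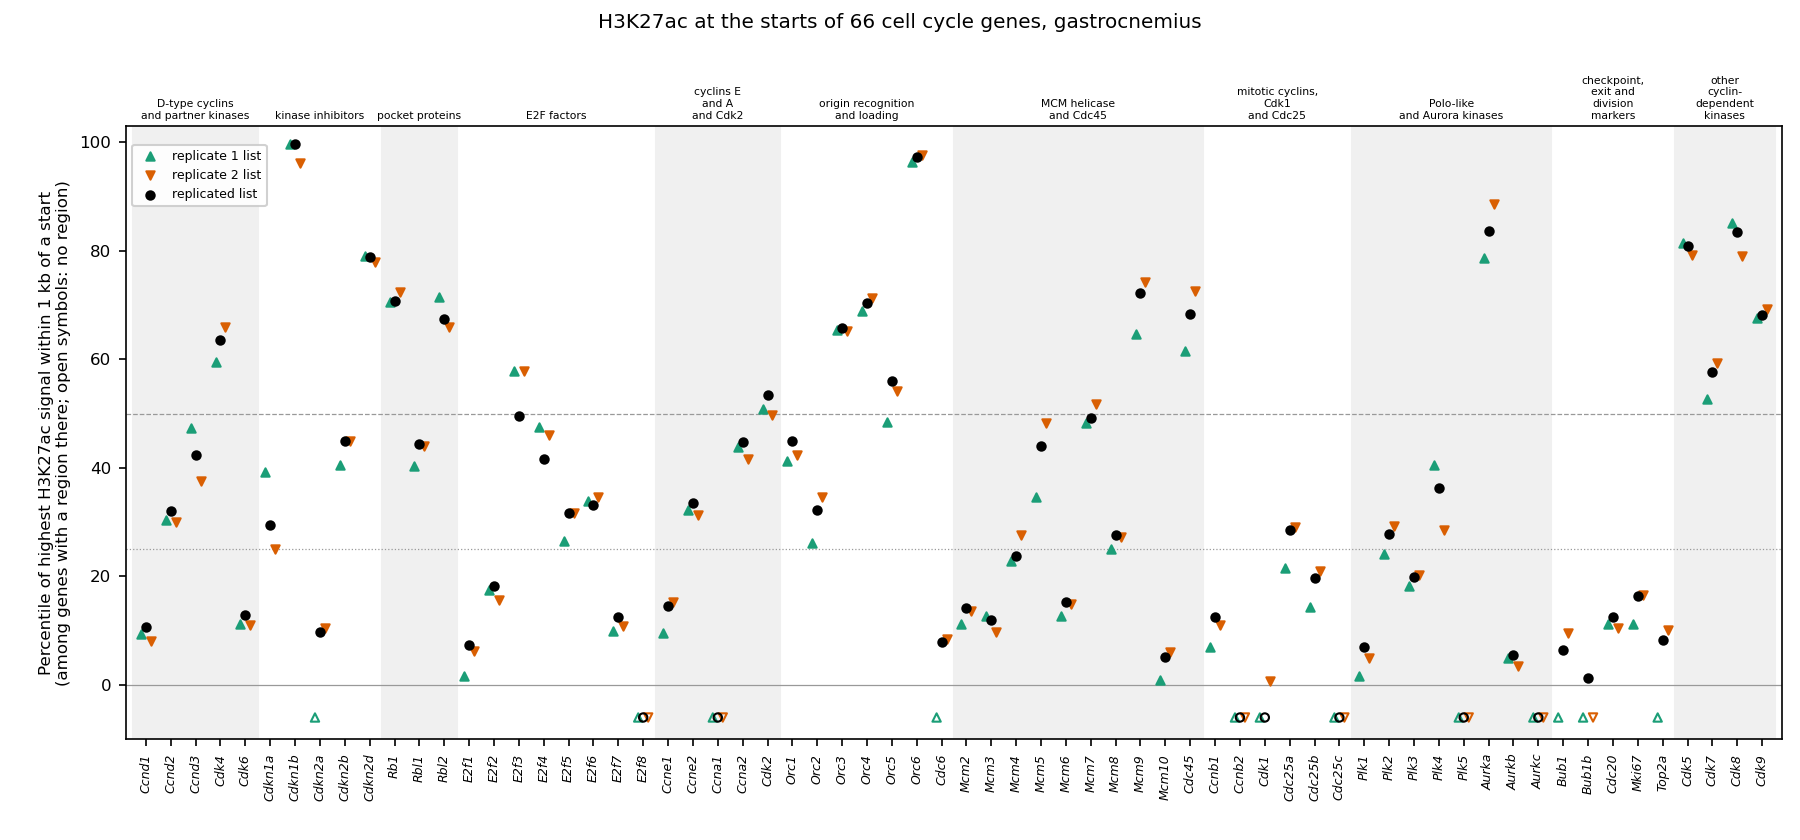
Percentile of each cell cycle gene's highest signal value within 1 kb of a start, among all genes with a region there in the same list (vertical axis), for 66 genes grouped by role (horizontal axis). Circles are the replicated list, upward triangles replicate 1 and downward triangles replicate 2; open symbols below 0 are genes with no region, and the dotted and dashed lines mark percentiles 25 and 50. The other cyclin-dependent kinases and the pocket protein Rb1 lie high in all 3 lists, and the checkpoint, exit and division markers lie under percentile 25 wherever they have a region.

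The D-type cyclins and their kinases, which start the cycle, all had a region in every list, and their acetylated stretches were long. The median covered length of the 5 genes was 5050 bp and their median signal value 19.2. With only the 5' end of each gene model as start, an alternative added after seeing the data, that median was 11.2. Cdk4 was the highest, with a signal value of 34.0 (26.1 and 36.3 in replicates 1 and 2; percentiles 63.6, 59.6 and 65.9). Ccnd1, the cyclin best known as a growth factor target, was the lowest, with 6.88, 6.52 and 6.15 (here and below, the replicated list and then each replicate; percentiles 10.7, 9.3 and 8.1). Ccnd1 was acetylated in breadth and not in height: 6 separate regions covered 5050 bp around its start, and the strongest of them, upstream at chr7:144941091-144942548, reached 8.50. Ccnd3, the D-type cyclin that rises as myoblasts differentiate, had the longest covered stretch of the 66 genes in the replicated list, 8293 bp (7270 and 8036 bp in the single replicates), around an internal start within a region at chr17:47592776-47601435 with a signal value of 20.1. Around its principal start 2679 bp before and 4719 bp after were covered, less in all than at Cdkn1b and Ccnd2, and the region there had its highest value, 24.3. Its strongest region within 5 kb, with 33.9, lay upstream of that start, at chr17:47501264-47502991. Ccnd2, with 7906 bp covered (7316 and 7101 bp), had a signal value of 19.2. Cdk6 had 3751 bp and a signal value of 8.11, below the lower quartile like Ccnd1.

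The inhibitors of these kinases held the highest value of the 66 genes in the replicated list and in replicate 1, and in replicate 2 only Orc6 was higher. Cdkn1b, an inhibitor of Cdk2 complexes that keeps cells at rest, had a signal value of 67.3 (56.6 and 54.9 in replicates 1 and 2), and ranked at percentiles 99.6, 99.6 and 96.2. Its region at chr6:134919011-134923912 spanned 4902 bp over the start, and with an upstream region 7950 bp were covered (6893 and 7885 bp in the single replicates). Cdkn2d, an inhibitor of Cdk4 and Cdk6, had 41.5 (percentile 78.8), Cdkn2b 25.5 and the p53 target Cdkn1a 17.8. Cdkn2a, which encodes both a Cdk4 inhibitor and the p53 activator Arf, was the lowest, with 6.44 over 406 bp, 7.38 in replicate 2 and no region in replicate 1. The remaining 3 genes had a region in every list, between these values.

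All 3 pocket proteins, the repressors that bind E2F factors, had a region in every list, and their median signal value of 35.8 was the highest of the groups that govern entry into the cycle. Rb1, the retinoblastoma protein, had 37.4 (30.3 and 39.4 in replicates 1 and 2; percentiles 70.7, 70.6 and 72.5). Rbl2, which forms the repressor complex of resting cells, had 35.8, 30.6 and 36.3. Rbl1, the pocket protein of cycling cells, was the lowest with 25.2, 19.4 and 26.4. Covered lengths ran from 2626 to 3592 bp. The 3 genes kept this order between Rbl1 and the other pair in each single replicate.

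Among the 8 E2F factors, 7 had a region in each of the replicated, replicate 1 and replicate 2 lists, and the median signal value was 15.2. E2f3, an activator, was the highest, with 27.5 (25.5 and 32.7 in replicates 1 and 2), and it was among the 5 genes with the longest cover, 6947 bp (4736 and 7593 bp). The repressors E2f4, E2f6 and E2f5 followed with 23.95, 19.8 and 18.99. The activators E2f1 and E2f2 were low, with 5.28 and 11.4 in the replicated list, and for both no region covered the start itself. E2f7, an atypical factor that represses E2F targets in cycling cells, had 7.98. Its close relative E2f8 had no region within 5 kb in any of the 4 lists. The 150 bases before the principal start of E2f8 (chr7:48881042-48881191, minus strand) and of E2f3 (chr13:29984392-29984541, minus strand) are shown because they are the gene of this group without acetylation and the one with the most. Capitals mark matches on either strand to an E2F element (TTTCCCGC, TTTCGCGC, TTTGCCGC, TTTGGCGC or TTCCCGCC), to CHR (TTTGAA) or to the CCAAT box (CCAAT), so that ATTGG is a CCAAT box read from the other strand.
E2f8: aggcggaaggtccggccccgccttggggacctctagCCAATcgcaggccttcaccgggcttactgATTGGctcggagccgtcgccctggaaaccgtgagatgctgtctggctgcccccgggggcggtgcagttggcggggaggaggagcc
E2f3: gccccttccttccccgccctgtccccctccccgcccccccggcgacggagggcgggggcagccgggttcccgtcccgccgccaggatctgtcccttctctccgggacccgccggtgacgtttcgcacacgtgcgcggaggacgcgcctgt
E2f8 has a pair of CCAAT boxes, starting 114 and 85 bases before the start, and the E2f3 stretch holds no match to the E2F, CHR or CCAAT letters.

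The cyclins of S phase were acetylated at 4 of the 5 genes in every list. Cdk2, the kinase of S phase entry, was the highest with 29.4 (22.8 and 29.1 in replicates 1 and 2). Ccna2, the cyclin A of somatic cells, had 25.4 over a short stretch of 880 bp, most of it before the start (823 of 880 bp). Ccne2 and Ccne1, the E-type cyclins, had 20.1 and 9.14. Ccna1, the cyclin A of the germ line, had no region within 5 kb in any list.

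The proteins that mark and load replication origins were among the more strongly acetylated groups, with a region at 7 of 7 genes (6 in replicate 1) and a median signal value of 30.6. Orc6, a subunit of the origin recognition complex, was the second highest of the 66 genes, with 58.0 (47.2 and 57.4 in replicates 1 and 2; percentiles 97.3, 96.4 and 97.6). Its region at chr8:85298675-85300773 also covers the start of Vps35, a gene of endosomal sorting, 11 bp away on the opposite strand. Orc4, Orc3, Orc5, Orc1 and Orc2 had 37.2, 34.96, 30.6, 25.5 and 19.4. Cdc6, which loads the MCM helicase onto origins and is itself an E2F target, was the lowest, with 5.54 in the replicated list, 6.27 in replicate 2 and no region within 1 kb in replicate 1. Its 3 regions within 5 kb all lay upstream of the start, and the nearest, at chr11:98907048-98907571, ended 230 bp before a start.

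The MCM genes, those of the replicative helicase and its relatives, and Cdc45 had a region at 10 of 10 genes in all lists. Their median signal value was 15.8, and 5 of the 10 genes lay below the lower quartile. Mcm9, a relative used in DNA repair, was the highest with 38.2 (28.1 and 40.2 in replicates 1 and 2). That value comes from a region at an internal start of the gene (chr10:53595578-53596697), while regions near the start it shares with Asf1a reached 26.9. Cdc45, which joins the helicase as it fires, had 36.2, 26.8 and 39.4. Of the core ring, Mcm7 had 27.4, Mcm5 25.1 and Mcm4 14.7, and Mcm6, Mcm2 and Mcm3 had 9.63, 8.88 and 7.52. Mcm2 stood beside a far stronger region, of 43.8 over 6034 bp at chr6:88900897-88906930, that began 2117 bp upstream of its start. Mcm10, which starts DNA unwinding, was the lowest with 4.49, 3.48 and 5.36, over 362 bp in the replicated list. The plot of percentiles shows the group split, with Mcm9 and Cdc45 above percentile 60 in each list and Mcm2, Mcm3, Mcm6 and Mcm10 below percentile 16 in each.

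The genes of mitotic entry had the lowest median signal of the 11 groups in the replicated list and in replicate 2. The checkpoint and division markers had it in replicate 1 and, with 5.67 against 5.89, in the pooled list. These medians count genes without a region as 0. Among genes with a region in the replicated list, the median percentile was 19.7 for mitotic entry and 8.2 for the checkpoint and division markers. Of the 6 mitotic cyclins, Cdk1 and Cdc25 phosphatases, 3 had a region in the replicated list and in replicate 1, and 4 in replicate 2. The median signal value, with genes without a region at 0, was 3.95 and the median covered length 323 bp. Ccnb2, a cyclin of mitosis, and Cdc25c, a phosphatase that activates Cdk1 at mitosis, had no region within 5 kb in any of the 4 lists. Cdk1, the kinase of mitosis, had none in the replicated list or replicate 1, and weak ones in replicate 2 (3.26, 451 bp covered) and the pooled list (3.88, 431 bp). In replicate 2 the Cdk1 regions ranked at percentile 0.7 of all genes with a region, and lay on both sides of the start without covering it. Ccnb1, the main mitotic cyclin, had 7.89 (5.62 and 7.73 in replicates 1 and 2). Cdc25a, which also acts at S phase entry, was the highest, with 17.4, 11.9 and 18.9. Cdc25b had 12.3, 8.71 and 14.0, and Spef1, a gene of cilia and flagella, starts 324 bp from it on the opposite strand. The sequences before the principal starts of Ccnb2 (chr9:70421548-70421697, minus strand) and Cdk1 (chr10:69352939-69353088, minus strand), without a region, are set beside those of Ccnb1 (chr13:100786571-100786720, minus strand) and Cdc25a (chr9:109875429-109875578, plus strand), with one. Capitals mark E2F, CHR and CCAAT letters as above.
Ccnb2: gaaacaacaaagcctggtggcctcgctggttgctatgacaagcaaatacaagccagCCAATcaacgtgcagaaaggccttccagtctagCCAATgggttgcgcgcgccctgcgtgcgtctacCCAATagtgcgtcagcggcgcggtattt
Cdk1: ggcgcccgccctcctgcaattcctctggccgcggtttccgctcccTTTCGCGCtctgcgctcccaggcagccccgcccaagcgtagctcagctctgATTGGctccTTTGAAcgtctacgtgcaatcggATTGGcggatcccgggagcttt
Ccnb1: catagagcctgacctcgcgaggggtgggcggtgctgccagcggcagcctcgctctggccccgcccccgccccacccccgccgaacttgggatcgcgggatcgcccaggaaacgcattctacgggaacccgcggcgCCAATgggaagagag
Cdc25a: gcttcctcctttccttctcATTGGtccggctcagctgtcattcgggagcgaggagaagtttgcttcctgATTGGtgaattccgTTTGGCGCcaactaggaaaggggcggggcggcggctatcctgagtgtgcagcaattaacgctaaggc
Ccnb2 has 3 CCAAT boxes, starting 94, 61 and 28 bases before the start, an even spacing. Cdk1 holds each of the 3 elements, an E2F element 105 bases before the start, CCAAT boxes at 54 and 22, and a CHR at 45. Ccnb1 and Cdc25a carry CCAAT boxes too, and Cdc25a an E2F element 67 bases before the start.

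Of the 8 Polo-like and Aurora kinases, 6 had a region in each of these lists, and the group held both high and low values (median 8.72). Aurka, the kinase of spindle poles, had 44.4 (33.8 and 48.0 in replicates 1 and 2) and lay after Cdkn1b and Orc6 in the replicated list, level with Cdk8. In replicate 1 Cdk8, Cdk5 and Cdkn2d were above it. Its region also covers the start of Cstf1, a gene of messenger RNA 3' end formation, 199 bp away on the opposite strand. Aurkb, the kinase of the centromere and midbody, had 4.59, 4.76 and 4.32, at or below percentile 5.5 in each, and a stronger region of 23.4 began 3721 bp from its nearest start. Aurkc, the Aurora kinase of germ cells, and Plk5, the family member known from brain, had no region within 5 kb in any list. Plk4, the kinase of centriole duplication, had 21.5. Plk2 and Plk3, which respond to growth factors and stress, had 17.0 and 12.3, and Plk2 was covered over 5391 bp. Plk1, the Polo-like kinase of mitosis, had 5.12, 3.71 and 4.92, over 654 bp. Plk1 and Aurkb were the lowest genes of this group with a region, while Aurka, the kinase of spindle poles, was the highest. The stretch before the start of Plk5 (chr10:80356309-80356458, plus strand) is shown as the one Polo-like gene without a region.
Plk5: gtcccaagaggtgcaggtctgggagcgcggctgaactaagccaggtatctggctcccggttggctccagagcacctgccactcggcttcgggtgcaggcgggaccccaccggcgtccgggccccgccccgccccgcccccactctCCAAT
Its single capital run is a CCAAT box in the last 5 bases before the start.

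The checkpoint, exit and division markers all lay below the lower quartile of signal. All 5 had a region in the replicated list, 4 had one in replicate 2 and 2 in replicate 1. Mki67, the antigen Ki-67 of dividing cells, was the highest, with 10.2 (7.34 and 11.2 in replicates 1 and 2), over 582 bp. Cdc20, the activator of the anaphase-promoting complex, had 7.98, 7.34 and 7.38 and was the only gene of the 5 with a region over its start. Top2a, the topoisomerase of dividing cells, had 5.67 over 303 bp, 7.16 in replicate 2 and no region in replicate 1. Bub1, a kinase of the spindle checkpoint, had 4.94 over 395 bp, 6.79 in replicate 2 and none in replicate 1. Bub1b, its partner BubR1, was the lowest and narrowest of the 59, with 3.22 over 240 bp (chr2:118597855-118598094), found in the replicated and pooled lists and in neither single replicate. So 3 of the 5 genes rest on regions that replicate 1 did not hold. The stretches before the starts of Mki67 (chr7:135716362-135716511), Bub1 (chr2:127831866-127832015) and Top2a (chr11:99024190-99024339), all on the minus strand, are shown. Mki67 is the highest gene of the group, and each of these genes was acetylated only before the start in the replicated list. Capitals again mark E2F, CHR and CCAAT letters.
Mki67: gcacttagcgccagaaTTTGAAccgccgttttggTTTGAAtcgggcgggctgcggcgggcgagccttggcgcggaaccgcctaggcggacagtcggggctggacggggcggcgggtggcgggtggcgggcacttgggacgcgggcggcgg
Bub1: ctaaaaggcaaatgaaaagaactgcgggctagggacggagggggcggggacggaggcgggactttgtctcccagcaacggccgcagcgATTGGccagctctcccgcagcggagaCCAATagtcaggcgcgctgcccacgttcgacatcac
Top2a: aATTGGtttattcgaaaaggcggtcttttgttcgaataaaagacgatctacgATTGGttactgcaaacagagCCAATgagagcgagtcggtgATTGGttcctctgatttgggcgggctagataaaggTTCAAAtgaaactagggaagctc
Mki67 has a pair of CHR elements, 134 and 116 bases before the start, Bub1 a pair of CCAAT boxes, and Top2a 4 CCAAT boxes with a CHR (written TTCAAA, its other strand) 23 bases before the start.

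The other cyclin-dependent kinases, best known for roles in transcription and in neurons, had the highest median of the 11 groups, with a region at 4 of 4 genes and a median signal value of 39.4. Cdk8, a kinase of the Mediator complex, had 44.4 (37.2 and 42.5 in replicates 1 and 2). Cdk5, best known in neurons, had 42.7, 35.2 and 42.6. Cdk9, which releases paused RNA polymerase, had 36.2, 29.2 and 37.8 and was covered over 5461 bp (4461 and 5168 bp), the fifth longest of the 66 genes in the replicated list. Cdk7, which activates other kinases and is part of the transcription factor TFIIH, was the lowest with 31.3, 23.6 and 33.3. The lowest gene of this group was thus above the highest of the mitotic cyclin and the checkpoint groups in each single replicate.

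**Figure D2:**
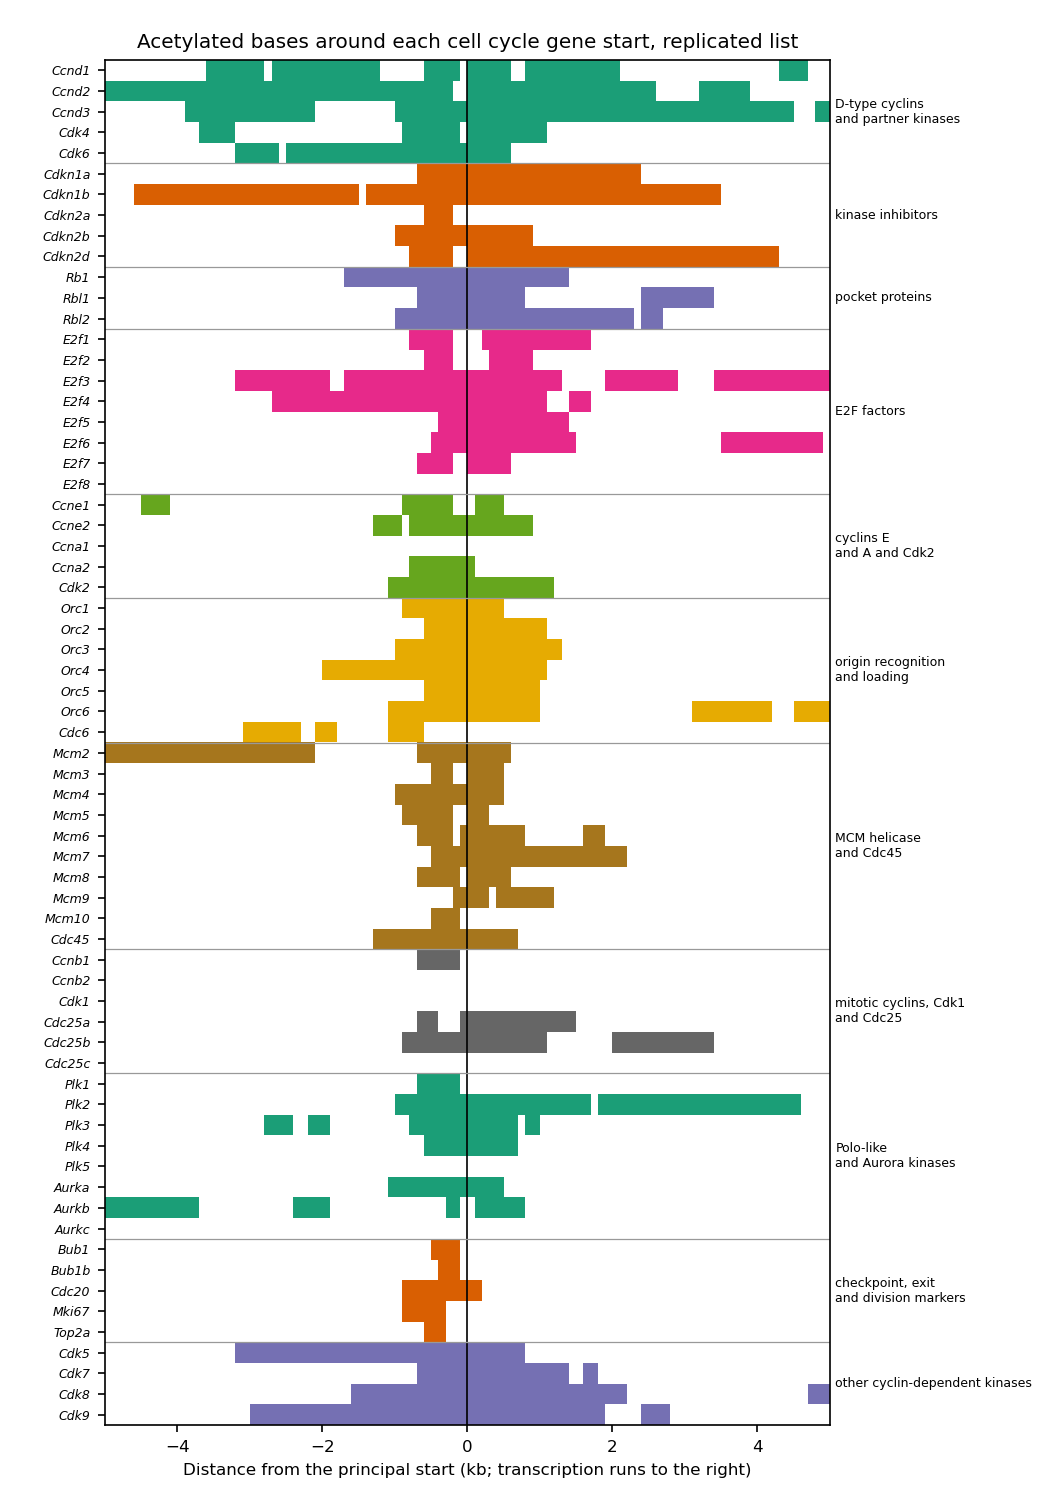
Bases inside a region of the replicated list (coloured) from 5 kb before to 5 kb after the principal start (horizontal axis, kb, transcription to the right) for 66 cell cycle genes (rows), grouped by role; colours only separate neighbouring groups, and bins are 100 bp. Long stretches fill the rows of Ccnd2, Ccnd3 and Cdkn1b, and short ones to the left of the start those of Bub1b, Top2a and Mki67.

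The cell cycle genes with another coding start within 1 kb had a higher median signal value than those without. A start of another protein-coding gene lay within 1 kb, on the opposite strand, for 11 of the 66 genes: Orc1 (with Prpf38a), Orc3 (Rars2), Orc4 (Mbd5), Orc6 (Vps35), Mcm4 (Prkdc), Mcm7 (Ap4m1), Mcm8 (Trmt6), Mcm9 (Asf1a), Cdc45 (Ufd1), Cdc25b (Spef1) and Aurka (Cstf1). The distances ran from 11 bp for Orc6 to 489 bp for Mcm4. All 11 had a region (91.6% of all genes with such a neighbour did), with a median signal value of 34.96 (26.8 in replicate 1 and 36.1 in replicate 2). That median includes the value of Mcm9 at its internal start. With only the principal start of each gene it was 27.4. All belong to the groups from the S phase cyclins to the division markers, 41 genes that were put together as replication and division genes after the values had been seen. Of the 30 such genes without a coding neighbour, 24 had a region, against 57.9% of all genes without one, and their median signal value was 7.94 (6.99 and 7.56). The remaining 25 genes, of cycle entry, inhibition and transcription, had no coding neighbour and a median of 24.3 (19.4 and 26.4). Without this grouping, all 55 cell cycle genes lacking a coding neighbour had a median of 12.3 (10.4 and 13.5). Genes overall showed the same direction, with medians of 32.3 with a coding neighbour and 7.47 without, genes without a region counted as 0. A histone mark carries no strand, so the share of either gene in a common region was not tested. A start of a noncoding gene lay within 1 kb of E2f8, Ccna1, Orc2, Orc5, Cdc25c and Plk1. Of the replication and division genes above percentile 60 in the replicated list, Orc3, Orc4, Orc6, Cdc45 and Aurka had their strongest region near the start with a coding neighbour, and Mcm9 had it at an internal start.

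**Figure D3:**
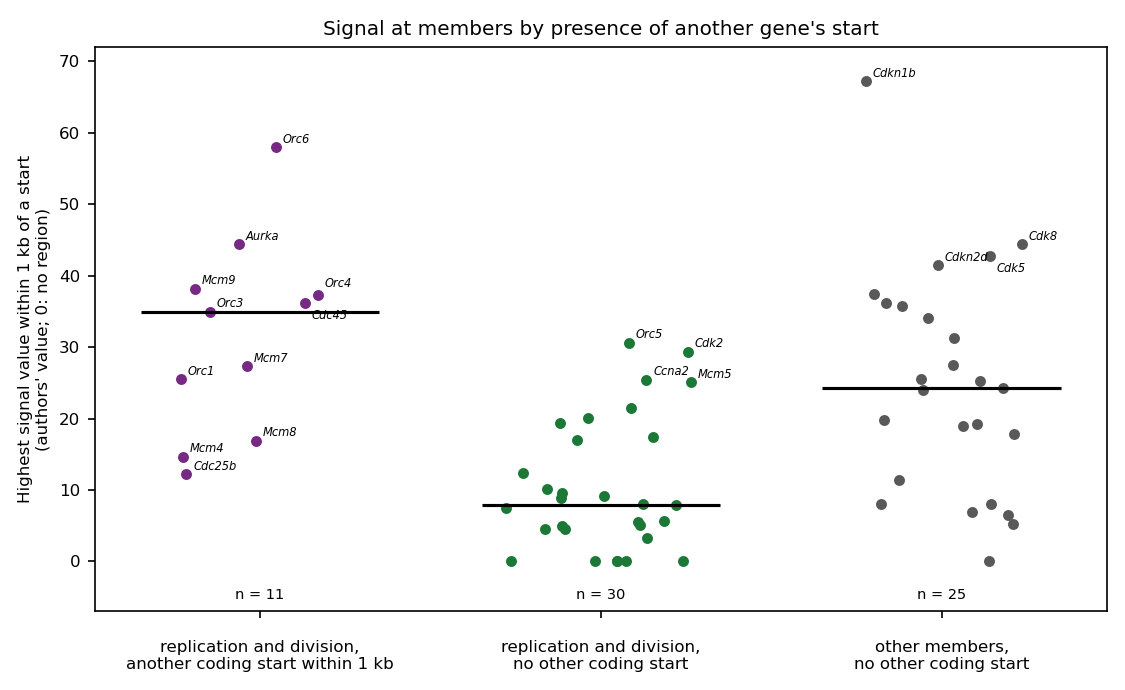
Highest signal value within 1 kb of a start in the replicated list (vertical axis, the authors' unit, 0 where there is no region) for each cell cycle gene, split by role and by the presence of another protein-coding start within 1 kb; points are genes, spread sideways at random, and bars are medians. The 11 genes with a neighbour have a median of 34.96 and the 30 without one a median of 7.94, and the points of both overlap between 12.3 and 30.6. The value of Mcm9 is that of an internal start, and with only principal starts the median of the 11 genes is 27.4.

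Several of the weak genes had detected regions on one side of the start only. In 9 of the 59 genes with a region (15.3%), all acetylated bases within 5 kb of the principal start lay before it: Mcm10, Bub1, Bub1b, Cdkn2a, Plk1, Mki67, Cdc6, Top2a and Ccnb1. Over all genes with a region within 1 kb of the principal start this held for 2.05%. Replicate 1 gave 6 of 54 (11.1%, all genes 2.31%) and replicate 2 gave 8 of 59 (13.6%, all genes 2.11%). In replicate 1 these were Mcm10, Plk1, Mki67 and Ccnb1 from the 9, with E2f2 and Ccne1. In the replicated list E2f2 and Ccne1 also had weak regions after the start, of 2.71 and 4.25. The other genes of the 9 had no region within 1 kb in that replicate. In replicate 2 they were the 9 without Bub1b. The reverse, bases after the start only, was found in 0 of 59 cell cycle genes and in 3.7% of all genes in the replicated list, and in 2 of 54 cell cycle genes (3.7%) and 4.76% of all genes in replicate 1. All 9 genes lay below the lower quartile of signal. Among genes below it, this held for 9 of 23 cell cycle genes (39.1%) and 6.41% of all genes. Among those whose promoter was also rich in CpG it held for 8 of 20 (40.0%) and 5.49%. Over all cell cycle genes the summit of the strongest region near the principal start lay at a median of 193 bp before it, and after it in 25 of 59 genes (42.4%), against a median of 151 bp after the start and 69.8% over all genes. The pattern was noticed in these lists and then counted, so it is a description. A weak region after the start that went undetected would give the same pattern, and this was not tested.

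**Figure D4:**
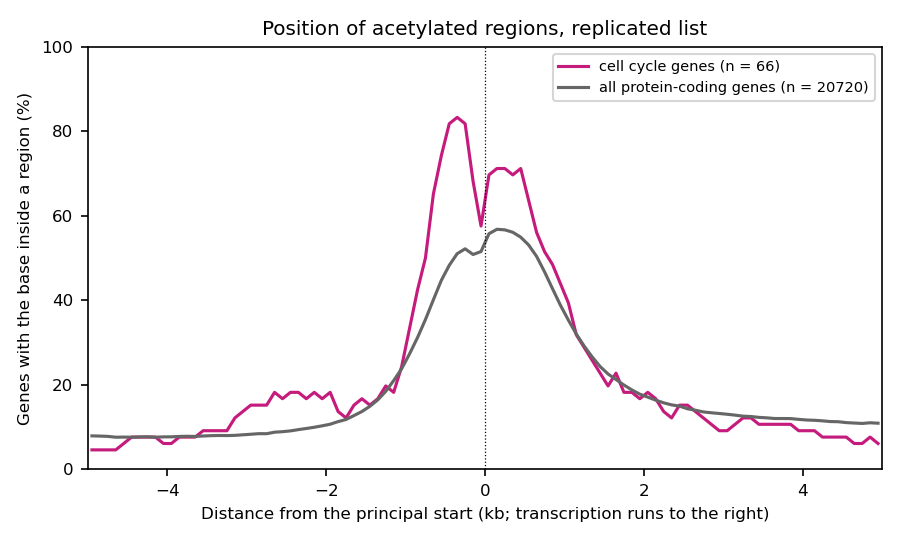
Percentage of genes with a base inside a region (vertical axis) in 100 bp bins from 5 kb before to 5 kb after the principal start (horizontal axis, kb), replicated list, for the 66 cell cycle genes and all 20720 genes. The cell cycle genes peak at 83.3% before the start, dip to 57.6% just before it and reach 71.2% after it, while all genes peak after the start at 56.8%.

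The promoters of the cell cycle genes were CpG-rich, a feature that went with acetylation over all genes: 89.5% of CpG-rich genes and 36.8% of the rest had a region. In the 300 bases from 250 before to 50 after the principal start, CpG was found at 0.6 or more of the frequency its bases predict in 59 of the 66 genes (89.4%) and in 47.9% of all genes. Among CpG-rich genes the cell cycle genes were acetylated as often as the rest: 53 of 59 (89.8%), against that 89.5%. Their median signal value was lower, 19.8 against 30.8, and likewise 16.6 against 24.6 in replicate 1 and 20.3 against 32.2 in replicate 2.

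The letters of the cell cycle elements were common in these windows. On either strand, an E2F element was found in 20 of 66 genes (30.3%, all genes 5.1%), CHR in 17 (25.8%, all genes 15.3%), the CCAAT box in 37 (56.1%, all genes 38.1%) and the GC box GGGCGG in 53 (80.3%, all genes 46.1%). Each E2F sequence searched and the GC box contain CG. Of the 66 promoters 89.4% were CpG-rich, against 47.9% of all genes, and the median GC content was 62.3% against 56.3%. Element shares were not compared among CpG-rich genes alone, so whether the higher shares go beyond base composition was not tested. The CCAAT box was found in 7 of the 7 genes without a region, 17 of the 23 below the lower quartile of signal (73.9%) and 13 of the 36 above it (36.1%). CHR was found in 3 of 7, 7 of 23 and 7 of 36. E2F elements were found in 2 of 7, 8 of 23 and 10 of 36. Among all genes without a region the CCAAT box was found in 39.2%, CHR in 21.3% and E2F elements in 1.96%. Among all genes with one the shares were 37.4%, 11.7% and 7.02%. The GC box was found in 8067 of the 12863 genes with a region and in 1494 of the 7857 without. By role, the CCAAT box was found in 9 of 10 MCM and Cdc45 genes and 6 of 6 mitotic cyclin, Cdk1 and Cdc25 genes. It was found in 5 of 5 checkpoint and division markers and in 0 of 5 D-type cyclins and their kinases. CHR was found in 4 of the 5 checkpoint and division markers, Bub1b, Cdc20, Mki67 and Top2a, and in 0 of 8 E2F factors. CCAAT has only 5 letters and CHR 6, so matches arise often in any sequence, and the GC box can share letters with an E2F element or a CCAAT box. The sequences are those of the reference mouse and were not read from these animals, and whether NF-Y, MuvB or E2F proteins were bound was not measured.

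**Figure D5:**
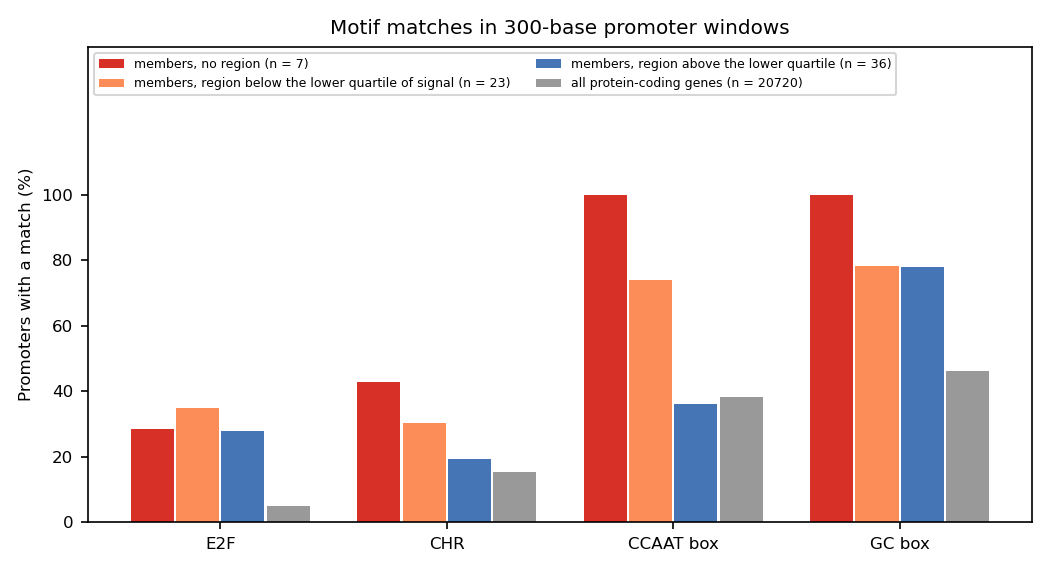
Percentage of genes with at least 1 match to each element (horizontal axis) in the 300-base promoter window (vertical axis), for cell cycle genes without a region (n = 7), with a region below the lower quartile of signal (n = 23) and above it (n = 36), and for all genes (n = 20720). The CCAAT box goes from 7 of 7 genes to 73.9% and 36.1% across the 3 sets of cell cycle genes, and the GC box is at or above 77.8% in each.

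Other genes of the same pathways, taken from 6 lists, were mostly acetylated too. Of 72 genes 70 had a region within 1 kb in the replicated list, and the single replicates held 69 and 70, against 62.1% of all genes in the replicated list and 59.7% and 62.0% in the replicates. Their median signal value was 22.9. The 2 without a region in any of these lists were Mybl2, the B-Myb factor that works with MuvB at mitotic genes, and Ticrr, which helps origins fire. The 13 genes of the anaphase-promoting complex, which also works in resting cells, all had a region (median 35.8), with Anapc5 the highest at 50.1. Among the MuvB proteins and E2F partners (8 of 9, median 23.1) Lin52 was the highest with 49.5. In the licensing list (8 of 9, median 12.3) it was Cdt1, which loads the helicase, with 44.0. Replication enzymes had a region at 15 of 15 genes, with a median of 16.6. Mitotic entry and spindle genes (16 of 16) had a median of 21.5, and were led by Cenpa, the histone of centromeres, with 44.0. The mitotic cyclins, Cdk1 and Cdc25 genes had 3.95 with genes without a region at 0. Those with a region, Ccnb1, Cdc25b and Cdc25a, had 7.89, 12.3 and 17.4. Among other inhibitors and cyclins (10 of 10, median 32.7) Cdkn2c, another inhibitor of Cdk4 and Cdk6, had 61.1 (52.0 and 57.8 in replicates 1 and 2). It ranked at percentile 98.6 in the replicated list.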

How the data were processed

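H3K27ac was measured in 1 group, gastrocnemius, in 2 biological replicates. The authors deposited 4 peak lists on mm10, 1 from each replicate, 1 from both pooled and 1 replicated list, per the deposited descriptions of the files. Each peak holds a deposited signal value, a p-value and a q-value deposited as −log10, a display score that was not used here, and a summit position. No source used here gives the aligner, peak caller, thresholds or depth, so no interval was computed.

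Genes and starts came from GENCODE M21 (basic set, 39540 starts), and sequence from the RefSeq copy of the same mouse assembly, known as GRCm38 or mm10. For each gene any peak base within 1 kb or 5 kb of a start, the highest signal value within 1 kb, and the base pairs covered in the 10 kb around the best start were computed with Python 3.11.15, pandas 2.3.3 and numpy 2.4.6. The script was tested on simulated starts. The principal start was the transcript with the best APPRIS tag, then the best support level, then the longest coding sequence. Percentiles rank genes with a region within 1 list. Genes are not replicates, so no test was run.

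The 66 genes, the role, pathway and marker lists and the elements searched were chosen with earlier results of these data known. Values in each list are given for the highest and lowest gene of each role, genes without a region, genes on which the single replicates differ, and the 5 longest and 5 shortest covered stretches. Sequences of 3 genes were added after the values were seen (Ccnb1, Bub1, Top2a). Orc6, Aurka, Aurkc and Cdc25c were named by the rule for sequences but are not printed. The highest gene of 1 pathway list is not reported here. Alternatives were the other 3 lists, a −log10 q of at least 5, other definitions of a start, other windows, and the summit in place of any base.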

Additional observations from a re-analysis of the deposited data

How the results depend on the processing

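Over the 4 lists, the count of genes with a region ran from 54 to 60 within 1 kb and from 55 to 60 within 5 kb. The count of genes covered only before the start ran from 6 to 11 over its alternatives, chosen after seeing the data. Heights and lengths moved with the list. With 1 replicate left out in turn, the median covered length ran from 1500 to 1855 bp (replicated list 1867 bp) and the median signal value, genes without a region at 0, from 13.5 to 18.7 (17.6). The median of genes with a coding neighbour ran from 26.8 to 36.1 (34.96), and was 27.4 when only the 5' end of each gene model, or only the principal start, was used. That of replication and division genes without one ran from 6.99 to 7.56 (7.94). Signal values of different lists have no common scale, so these shifts compare lists, and the cause was not tested. Leaving out replicate 2 left 2 of the 5 checkpoint and division markers with a region. Of the role values, which were added after seeing the data, 121 were classed as the same and 11 as moved. Medians were judged by the spread between the single replicates, and counts by a fixed ratio, so some counts classed as the same lay outside that spread. Most that moved were group medians with replicate 2 left out. No paired analysis was possible because the series has 1 group. With depth unknown, a gene without a region is one where none was detected in these lists.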
